A study of Mus musculus with 4 samples.

Results

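The replication-dependent histone genes were the genes whose symbol starts with Hist1h, Hist2h, Hist3h or Hist4h and which held at least 20 UMIs (unique molecular identifiers, 1 per captured RNA molecule) summed over 4 single-cell libraries of the postnatal mouse brain. Of 31053 listed genes, 67 had such a symbol and 62 passed. The 62 comprised 6 linker histone H1 genes, 16 H2A, 16 H2B, 12 H3 and 12 H4 genes. The Hist1 array on chromosome 13 held 50 of them, Hist2 on chromosome 3 held 9, Hist3 on chromosome 11 held 2 and Hist4 on chromosome 6 held 1. The members closest to the limit were Hist1h2ao with 88 UMIs and Hist1h1t with 96, and those left out just under it were Hist2h2aa2 with 11, Hist1h2bq with 3 and Hist1h4m with 3.

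The cells came from the dorsal ventricular-subventricular zone (V-SVZ), a germinal layer beside the lateral ventricle. The mice were wild type, of the OF1 strain, without transgene or treatment, and 2, 12 and 22 days old (P2, P12 and P22). There was 1 library each at P2 and P22 and 2 from independent experiments at P12, and where a pair of P12 values is given, replicate 1 comes first. For each time point tissue of a pair of animals was pooled according to the study's methods, the labels call the mice male while the methods mention a female at P2, and living nucleated cells had been sorted before capture. P2 and P22 libraries were processed by the authors with another version of Cell Ranger than those of P12, so that age, library and software version cannot be told apart.

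Most mRNAs carry a poly(A) tail, but the mRNAs of replication-dependent histones end just after a conserved stem-loop to which the stem-loop binding protein Slbp binds. They are made in large amounts while DNA is copied in S phase and are degraded when replication ends, so that new DNA can be wrapped around the core histones H2A, H2B, H3 and H4 and compacted by the linker histone H1. Several of these genes can also end further downstream at an ordinary poly(A) site, and such transcripts are known from cells that have left the cycle. Libraries primed with oligo-dT, as here, count tailed RNA, so that the values below are counts of captured molecules and levels of different members cannot be ranked by them.

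A 16-base stem-loop was looked for on the sense strand of the annotated 3′ untranslated regions (GENCODE annotation of GRCm38, the build of the files). The searched letters were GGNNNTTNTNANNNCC with 6 paired bases on either side of a 4-base loop. It was found in 44 of the 62 members. A wider search, over whole transcripts and not only untranslated regions, found it in 108 of 21901 protein-coding genes (0.493%). The sequences below, each with 5 flanking bases where the annotated transcript goes that far, show how the stems differ between histone types, and the capitals mark the stem-loop.

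Hist1h1e, chr13:23621782-23621797 (minus strand): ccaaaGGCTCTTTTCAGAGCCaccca
Hist1h2ap, chr13:21833029-21833044 (minus strand): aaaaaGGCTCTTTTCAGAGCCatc
Hist1h2ae, chr13:23570668-23570683 (minus strand): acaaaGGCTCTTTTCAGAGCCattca
Hist3h2ba, chr11:58949349-58949364 (plus strand): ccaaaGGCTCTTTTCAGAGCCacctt
Hist1h3c, chr13:23745047-23745062 (minus strand): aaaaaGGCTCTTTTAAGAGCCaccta
Hist1h3g, chr13:23535889-23535904 (plus strand): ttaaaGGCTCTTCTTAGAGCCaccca
Hist2h3c1, chr3:96247327-96247342 (plus strand): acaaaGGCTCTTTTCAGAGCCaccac
Hist1h4d, chr13:23581950-23581965 (plus strand): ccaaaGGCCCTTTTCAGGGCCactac
Hist1h4a, chr13:23760800-23760815 (minus strand): ccaaaGGCCCTTCTCAGGGCCgccca
Hist1h4b, chr13:23757366-23757381 (plus strand): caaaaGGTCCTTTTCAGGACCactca
Hist4h4, chr6:136803998-136804013 (minus strand): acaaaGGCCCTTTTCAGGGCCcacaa

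All 33 stem-loops of H1, H2A, H2B and H3 genes had CTC at stem positions 3 to 5, counted from the first G. In the 11 H4 genes with a stem-loop these positions read CCC in 9 and TCC in 2, among them Hist1h4b. The commonest stem-loop, the one shown for Hist1h2ap, stood in 25 members of 4 histone types. Of the 18 members without a match, 13 had at most 2 bases of annotated 3′ untranslated region, so that no stem-loop could have been found.

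The annotated transcripts ran on past the stem-loop by very different lengths. That of Hist1h2ap ended 3 bases after it and that of Hist1h4b 28 bases after it. The transcripts of Hist1h4d and Hist2h3c1 ran on for 770 and 1167 bases, that of Hist3h2a for 1643 and that of Hist4h4 for 2445. Hist1h2bc and Hist2h2be, both H2B genes, had no stem-loop match in 3′ untranslated regions of 742 and 2192 bases. In all, 21 members ran at least 300 bases past the stem-loop or, where there was none, past the stop codon, a limit chosen after the data had been seen.

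Near-identical copies limit what the count of a single member means. Over the last 400 bases of each transcript, 25 members shared at least 50% of their 91-base windows with another gene, namely 10 of 16 H2A, 8 of 12 H3, 4 of 16 H2B, 2 of 12 H4 and 1 of 6 H1 genes. All windows of Hist1h2ap stood in another H2A gene as well, 72.3% of those of Hist1h2ad did, and Hist1h3e and Hist1h3f shared 71.0% and 72.3% of theirs with other H3 genes. The last bases of Hist1h1e also lie inside an annotated transcript of Hist1h2be on the same strand. Counts of these members are uncertain as counts of 1 gene, whereas 19 members, among them Hist1h1b, Hist1h2bc and Hist3h2a, shared no window.

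The 4 libraries held 66743936 (P2), 106402687 and 80386488 (P12) and 65323423 UMIs (P22), and 4027, 7006, 4596 and 4231 cells were kept, with medians of 14303, 11851.5, 13899.5 and 11995 UMIs. Any 2 libraries had 5 to 12 barcodes in common. Over all barcodes, before cells were filtered, the members held 450809, 260550.0, 234992 and 662345 UMIs. The members and 41 other histone-related genes were held out of clustering and of the cell cycle scores, so that neither cell groups nor phases were defined by them. Quiescent neural stem cells (qNSC-like), activated neural stem cells (aNSC-like), transit amplifying progenitors (TAP-like), neuroblasts, astrocytes and ependymal cells were named from marker genes. The aNSC-like cluster was led by Cdc6, Ung, Cdt1 and Hells, of which Cdc6, Ung and Hells also counted toward the S score. Leading genes of the TAP-like cluster were Eomes, Ccnb2 and Cdc20 among others. Neuroblast-like cells joined a cluster with Slc17a6 and Tbr1 and a cluster with Gad1 and Synpr among the leading genes. A further dividing cluster had both TAP and neuroblast markers among its leading genes (Sp9, Dlx5, Dlx6, Gad2) and is called by its number, cluster 5. UMIs were summed per library and cell group with at least 20 cells, and the sums were compared with edgeR's quasi-likelihood test (library as block, Benjamini-Hochberg adjustment over all genes, threshold 0.05). Levels are given as CPM, a gene's UMIs scaled to a common total of UMIs per library and cell group. Folds come from the fit with TMM-scaled totals, and Poisson and binomial intervals cover counting error only.

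Histone transcripts were a small share of all captured RNA in quiescent cells and a far larger one in dividing cells. In qNSC-like cells all 62 members together came to 854 CPM at P2, 691 and 909 at P12 and 957 at P22. In aNSC-like cells they came to 15027 CPM at P2, 4819 and 8813 at P12 and 13756 at P22, above the qNSC-like cells of every library. TAP-like cells held 7210.2 CPM at P2, 3089.7 and 5501 at P12 and 7401 at P22, and cluster 5 held 21747 CPM at P2, 5933 and 10648 at P12 and 27212 at P22, or 0.593 to 2.72% of all UMIs. Neuroblast-like cells were down to 1411 CPM at P2, 984 in P12 replicate 1 and 2707 at P22, with too few cells in P12 replicate 2. Of these cells 4.29% at P2, 15.4% in P12 replicate 1 and 15.5% at P22 were called S or G2M, and without them the level was 1417 CPM, 1059.7 CPM and 2748 CPM. Astrocyte-like cells (835 CPM at P2, 503 and 581 at P12 and 680.4 at P22) and ependymal-like cells (679.8 CPM at P2, 613 and 764 at P12 and 1150.5 at P22) lay in the range of 503 to 1151 CPM, near the qNSC-like cells.

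**Figure D1:**
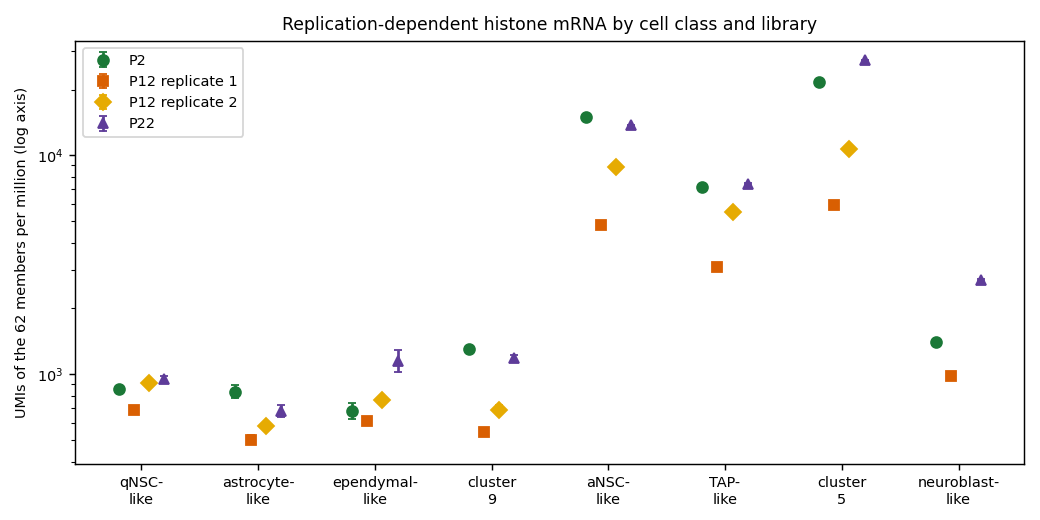
Summed level of the histone genes in each cell group and library, in CPM on a log axis, with points for the 4 libraries and bars for exact Poisson 95% intervals. All 4 libraries of the aNSC-like, TAP-like and cluster 5 groups lie above the qNSC-like cells of the same library, and the P2 and P22 libraries lie above the P12 libraries in cluster 5.

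Between aNSC-like and qNSC-like cells, 54 of 60 tested members were higher and 4 were lower, where 36.1% of all genes were higher and 33.7% lower. The median log2 fold change of the members was 4.46, against 0.02 over all genes. Cells called S or G2M made up 97.2 to 100% of the aNSC-like cluster in each library. In each qNSC-like cluster they made up 0 to 1.42%, so that state and division cannot be told apart here. Higher in aNSC-like cells were 5 of 5 H1, 14 of 15 H2A, 14 of 16 H2B, 10 of 12 H3 and 11 of 12 H4 genes. The remaining 2 members, Hist1h1t and Hist1h2ao, had too few UMIs to be tested.

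Among the H1 genes, Hist1h1b, an H1 subtype of dividing cells, went from 22.8 CPM at P2, 10.1 and 11.9 at P12 and 24.5 at P22 in qNSC-like cells to 2506 CPM at P2, 1244 and 1518 at P12 and 2194 at P22 in aNSC-like cells (log2 fold change 6.92 ± 0.40 (SE), adjusted p = 6.23e-14 by edgeR). All 4 aNSC-like values lay far above all 4 qNSC-like values. Hist1h1e and Hist1h1c, which encode subtypes that many resting cells also carry, changed by smaller log2 fold changes than Hist1h1b. Hist1h1e went from 316 CPM at P2, 117 and 234 at P12 and 186 at P22 to 1200.3 CPM at P2, 504 and 1095 at P12 and 836 at P22 (log2 fold change 2.20 ± 0.25), and Hist1h1c from 21.6 CPM at P2, 54.1 and 39.4 at P12 and 29.2 at P22 to 162 CPM at P2, 115 and 163 at P12 and 116 at P22 (log2 fold change 2.05 ± 0.33). Neither gene's groups overlapped.

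The H2A genes had the largest median difference of the 5 types, 6.02 on the log2 scale. Hist1h2af, an H2A gene, went from 0.444 CPM at P2, 0.464 and 0.885 at P12 and 1.22 at P22 to 121 CPM at P2, 100.2 and 220.2 at P12 and 84.3 at P22 (log2 fold change 7.64 ± 0.28 (SE), adjusted p = 2.60e-17 by edgeR). Hist1h2ae rose from 21.0 CPM at P2, 5.75 and 11.5 at P12 and 30.6 at P22 to 1435 CPM at P2, 394 and 1119 at P12 and 1377 at P22 (log2 fold change 6.19 ± 0.23). Both genes were higher in aNSC-like cells in 4 of 4 libraries, and the groups did not overlap. Hist1h2ap, whose annotated windows all stand in another H2A gene as well, rose from 46.7 CPM at P2, 2.06 and 7.52 at P12 and 67.1 at P22 to 4644 CPM at P2, 265 and 1083 at P12 and 5627 at P22 (log2 fold change 6.91 ± 0.29). Here the libraries differed greatly from each other, with P2 and P22 far above both P12 libraries in either cell group. Hist1h2ad moved in the same way, from 12.3 CPM at P2, 0.319 and 0.472 at P12 and 6.99 at P22 to 554 CPM at P2, 5.65 and 32.3 at P12 and 606 at P22. At P22 endothelial-like and microglia-like cells called G1, taken below as a measure of free RNA, had a Hist1h2ap UMI in 51.1% of cells. Among qNSC-like cells called G1 it was 42.2%. For Hist1h2ad the shares were 10 and 5.91%. The qNSC-like levels of both genes at P22 were therefore not read as expression. The same holds at P22 for Hist1h1e (73.3 against 68.8%), Hist1h1c (47.8 against 18.7%), Hist1h3e (6.67 against 5.58%) and Hist2h2bb (2.22 against 1.64%). At P12 it holds for Hist1h1c and Hist1h4h in both libraries, with 26 and 35 such cells. The measure is rough, since at P22 the members summed to 483 CPM in endothelial-like and 950 CPM in microglia-like cells called G1.

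Of the H3 genes, Hist1h3c was found at 1.48 CPM at P2, 1.28 and 1.53 at P12 and 1.05 at P22 in qNSC-like cells and at 266 CPM at P2, 243 and 456 at P12 and 157 at P22 in aNSC-like cells (log2 fold change 7.75 ± 0.29 (SE), adjusted p = 3.83e-17 by edgeR). Hist1h3e rose from 9.78 CPM at P2, 2.99 and 7.17 at P12 and 7.16 at P22 to 267 CPM at P2, 81.6 and 149 at P12 and 141 at P22 (log2 fold change 4.64 ± 0.23), and Hist1h3i from 4.59 CPM at P2, 2.64 and 2.89 at P12 and 2.97 at P22 to 152 CPM at P2, 125 and 124 at P12 and 74.8 at P22 (log2 fold change 5.31 ± 0.30). Every aNSC-like library was above every qNSC-like library in these 3 genes.

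Of the H4 genes, which all encode the same protein, Hist1h4d went from 97.0 CPM at P2, 39.3 and 80.9 at P12 and 111 at P22 to 581 CPM at P2, 369 and 646 at P12 and 398 at P22 (log2 fold change 2.77 ± 0.18). Hist1h4h went from 22.7 CPM at P2, 4.70 and 18.3 at P12 and 26.4 at P22 to 379.7 CPM at P2, 103 and 271 at P12 and 203 at P22 (log2 fold change 3.95 ± 0.22), and Hist1h4a from 1.93 CPM at P2, 3.83 and 7.94 at P12 and 4.37 at P22 to 91.2 CPM at P2, 43.8 and 86.6 at P12 and 30.99 at P22 (log2 fold change 3.75 ± 0.33). The groups of none of the 3 genes overlapped. Hist1h4f had 0 UMIs in the qNSC-like cells of all 4 libraries and 155 in aNSC-like cells, which puts its log2 fold change at 6.38 or more when a floor of 3 counts over the group is used.

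Among the H2B genes, Hist2h2bb rose from 5.04 CPM at P2, 3.40 and 9.88 at P12 and 2.10 at P22 to 111 CPM at P2, 48.6 and 56.1 at P12 and 48.9 at P22 (log2 fold change 3.63 ± 0.30). Hist3h2ba rose from 19.1 CPM at P2, 25.2 and 21.0 at P12 and 15.9 at P22 to 80.4 CPM at P2, 39.5 and 34.3 at P12 and 79.0 at P22 (log2 fold change 1.45 ± 0.25). In neither gene did the groups overlap, but the step of Hist3h2ba was small beside those of most members.

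Against most members 4 genes fell, and each of them ran at least 300 bases past the stem-loop or the stop codon. Hist1h2bc, an H2B gene, was at 112 CPM at P2, 209.8 and 245 at P12 and 222 at P22 in qNSC-like cells and at 59.5 CPM at P2, 40.7 and 44.1 at P12 and 67.2 at P22 in aNSC-like cells (log2 fold change -1.74 ± 0.37 (SE), adjusted p = 0.000182 by edgeR). Hist3h2a, the H2A gene next to Hist3h2ba, went from 26.2 CPM at P2, 82.9 and 62.1 at P12 and 41.6 at P22 to 24.6 CPM at P2, 25.9 and 20.2 at P12 and 24.2 at P22 (log2 fold change -1.01 ± 0.25 (SE), adjusted p = 0.000782 by edgeR). The groups of Hist1h2bc did not overlap, whereas the lowest qNSC-like value of Hist3h2a, at P2, was barely above the highest aNSC-like value. The H3 genes Hist2h3c1 (log2 fold change -2.20 ± 0.43 (SE), adjusted p = 5.70e-05 by edgeR) and Hist2h3c2 (log2 fold change -2.84 ± 0.42 (SE), adjusted p = 1.28e-06 by edgeR) fell as well. Hist2h3c1 went from 2.67 CPM at P2, 15.2 and 16.9 at P12 and 7.34 at P22 to 0.812 CPM at P2, 3.89 and 1.03 at P12 and 2.72 at P22, and Hist2h3c2 from 2.52 CPM at P2, 9.84 and 6.37 at P12 and 4.72 at P22 to 0.812 CPM at P2, 1.17 and 0.343 at P12 and 0.815 at P22. P2 was the lowest of the qNSC-like libraries in both, and the groups overlapped in Hist2h3c1 only. All windows of Hist2h3c1 also stand in the overlapping gene model Gm20634, so that its count is uncertain.

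Annotated length past the stem-loop went with the size of the difference. The 21 members that ran at least 300 bases past it had a median log2 fold change of 2.20, with 15 higher and 4 lower. The others had a median of 5.72, with 39 of 39 tested higher. They include the 13 members with at most 2 bases of annotated 3′ untranslated region, whose 3′ end is not known from the annotation. In qNSC-like cells the 21 long members supplied 73.7% of all member UMIs at P2, 88.1 and 84.5% at P12 and 70.9% at P22. Among dividing cells called G2M they supplied 21.0%, 32.2 and 31.8%, and 16.8%. Sharing of windows ran with it too, since the 24 tested members with at least 50% shared windows had a median of 5.58 and the other 36 a median of 3.92. These medians describe the members and were not tested.

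**Figure D2:**
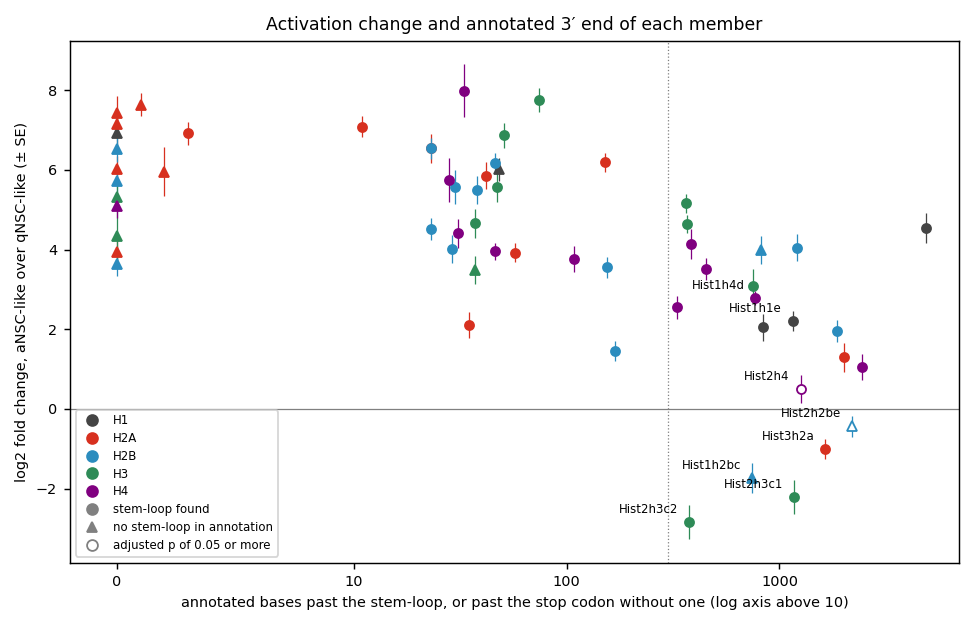
Log2 fold change (± SE) between aNSC-like and qNSC-like cells against the annotated bases past the stem-loop (circles) or, without one, past the stop codon (triangles), filled where the edgeR test called the member. Left of the dotted line at 300 bases all 39 tested members lie above 0, and the 4 members below 0 that were called lie right of it. Members with almost no annotated 3′ untranslated region also lie left of the line.

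The histone types also contributed differently to the sum. In qNSC-like cells the H2B share of member UMIs was 18.7% at P2, 40.5 and 35.3 at P12 and 28.4 at P22, most of it from Hist1h2bc, and the H2A share was 18.7% at P2, 17.4 and 13.7 at P12 and 24.6 at P22. In dividing cells called G2M the H2B share was 7.09% at P2, 11.9 and 7.94 at P12 and 4.79 at P22 and the H2A share 51.7% at P2, 26.7 and 32.7 at P12 and 60.3 at P22. The H2B share was thus lower in the dividing cells of all 4 libraries and the H2A share higher, with P2 and P22 at the top for H2A.

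The same contrast was seen cell by cell. The share of cells with a UMI of Hist1h3c was 77.7% at P2, 78.9 and 82.1 at P12 and 76.6 at P22 among dividing cells called G2M and 2.24% at P2, 1.32 and 1.92 at P12 and 0.985 at P22 among qNSC-like cells called G1. With every cell thinned to 5000 UMIs it was 62.8% at P2, 59.1 and 62.5 at P12 and 60.3 at P22 in the former and 0.756% at P2, 0.635 and 0.591 at P12 and 0.502 at P22 in the latter. Endothelial-like and microglia-like cells, taken as a measure of free RNA, had a Hist1h3c UMI in 0 of 26 and 0 of 35 cells at P12, which allows shares of up to 11.5 and 8.57%, and in 3.33% of 90 cells at P22. No such cells could be set beside the qNSC-like cells at P2. At P22 the share in these cells was not below that of the qNSC-like cells, and the zeros at P12 are too few cells to set a level, so that the qNSC-like shares were not read as expression.

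Hist1h2bc showed the opposite order between qNSC-like cells and dividing cells called S. Among qNSC-like cells called G1 the share with a UMI was 68.7% at P2, 76.2 and 86.7 at P12 and 76.2 at P22, and thinned it was 39.5% at P2, 56.3 and 63.5 at P12 and 60.0 at P22. Among dividing cells called S the share was 58.5% at P2, 44.9 and 57.1 at P12 and 55.2 at P22, and thinned it was 25.7% at P2, 16.2 and 18.1 at P12 and 22.2 at P22. In endothelial-like and microglia-like cells the thinned share was 8.33% and 25.7 at P12 and 13.6 at P22. The qNSC-like share was above that of dividing cells called S and of endothelial-like and microglia-like cells in every library that had them. Dividing cells called G2M had a share of 77.3% at P2, 63.4 and 64.1 at P12 and 71.2 at P22. At P2 only, this was above the qNSC-like share. Thinned, their share was 35.8% at P2, 26.0 and 20.6 at P12 and 28.7 at P22. In every library this was below the thinned qNSC-like share. At P2 the binomial intervals overlapped, with 31.6 to 40.1% in G2M and 34.7 to 44.5% in qNSC-like cells. Median depth was 8587 to 16408 UMIs in qNSC-like cells, 8094 to 16977.5 in endothelial-like and microglia-like cells at P12 and P22, and 20790.0 to 29603 in dividing cells called S.

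The next comparison gave smaller differences for most members, and descent of 1 class from another was not tested. Between TAP-like and aNSC-like cells 0 of 60 members were higher and 19 lower (4.79 and 5.73% of all genes), with a median log2 fold change of -0.65. Lower in TAP-like cells were 4 of 5 H1, 7 of 15 H2A, 2 of 16 H2B, 5 of 12 H3 and 1 of 12 H4 genes. Hist1h1b fell from 2506 CPM at P2, 1244 and 1518 at P12 and 2194 at P22 to 980.4 CPM at P2, 607 and 787 at P12 and 1089 at P22 (log2 fold change -1.06 ± 0.31 (SE), adjusted p = 0.0270 by edgeR), and Hist1h1d, another H1 gene, from 195 CPM at P2, 109 and 229 at P12 and 146 at P22 to 79.1 CPM at P2, 57.9 and 116 at P12 and 68.1 at P22 (log2 fold change -1.06 ± 0.32 (SE), adjusted p = 0.0321 by edgeR). Hist1h3a, an H3 gene, fell from 77.4 CPM at P2, 29.7 and 22.8 at P12 and 34.7 at P22 to 26.4 CPM at P2, 17.2 and 10.4 at P12 and 16.6 at P22 (log2 fold change -1.11 ± 0.31 (SE), adjusted p = 0.0189 by edgeR). Every library went down in these genes, although the range over the 4 libraries overlapped in Hist1h1d and Hist1h3a. The smallest called falls were those of Hist1h3e (-0.62 ± 0.20), Hist1h3f (-0.68 ± 0.19) and Hist1h2ab (-0.57 ± 0.18). TAP-like cells were called G2M in 86.0 to 96.2% of cells and aNSC-like cells in 12.5 to 31.4%, so that state and phase go together here. Within cells called G2M the member sums, given below, were lower in TAP-like than in aNSC-like cells in every library. Within cells called S they were higher in both P12 libraries, the only ones with a TAP-like sum. These differences within a phase were not tested. The number of calls depended on single libraries, with 7 without P2, 4 without P12 replicate 1 and 8 without P12 replicate 2.

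Cluster 5 was compared with the other groups after the data had been seen. It exceeded aNSC-like cells in 41 of 60 members and fell short in 0 (14.6 and 20.4% of all genes), with a median of 0.86. Higher were 2 of 5 H1, 9 of 15 H2A, 15 of 16 H2B, 9 of 12 H3 and 6 of 12 H4 genes. Hist1h2ag, an H2A gene with low counts, rose from 13.1 CPM at P2, 3.30 and 3.60 at P12 and 9.24 at P22 to 43.5 CPM at P2, 9.27 and 9.37 at P12 and 29.5 at P22 (log2 fold change 1.70 ± 0.21 (SE), adjusted p = 3.31e-06 by edgeR). Hist3h2ba rose from the aNSC-like values above to 193 CPM at P2, 188 and 72.5 at P12 and 163 at P22 (log2 fold change 1.54 ± 0.24 (SE), adjusted p = 3.02e-05 by edgeR). Hist1h3h, the other of the 3 with the largest rise, rested on 55 UMIs in aNSC-like cells, and the smallest called rises were those of Hist1h2bj (0.65 ± 0.18), Hist1h4h (0.64 ± 0.19) and Hist2h2be (0.68 ± 0.27). Cluster 5 cells were called G2M in 69.5 to 90.0% of cells, and with total UMI counts in place of TMM the rises numbered 35.

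In neuroblast-like cells nearly all members were low again. Of these cells the cluster with Gad1 and Synpr supplied 1708 of 2028 at P2, 59 of 130 in P12 replicate 1 and 1410 of 1471 at P22. Against TAP-like cells 52 of 60 were lower and 2 higher (29.2 and 25.3% of all genes, median -2.45). Lower were 4 of 5 H1, 14 of 15 H2A, 14 of 16 H2B, 9 of 12 H3 and 11 of 12 H4 genes. Hist1h3c fell from 164 CPM at P2, 155 and 328 at P12 and 95.5 at P22 to 2.43 CPM at P2, 1.08 in P12 replicate 1 and 2.73 at P22 (log2 fold change -6.08 ± 0.32 (SE), adjusted p = 4.20e-14 by edgeR). Hist1h2af (-6.49 ± 0.32) and Hist1h3b (-6.08 ± 0.36), an H3 gene, fell about as far, and Hist1h4j (-1.01 ± 0.41) fell least among those called. Against cluster 5 the counts were 55 lower and 2 higher (23.8 and 21.5% of all genes, median -3.86), led by Hist1h2af (-7.80 ± 0.33), Hist1h3b (-7.79 ± 0.36) and Hist1h3c (-7.63 ± 0.33).

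Both members that rose in neuroblast-like cells belong to the Hist3 pair. Hist3h2ba went from 61.5 CPM at P2, 72.2 and 57.0 at P12 and 65.5 at P22 in TAP-like cells to 352 CPM at P2, 314 in P12 replicate 1 and 421 at P22 in neuroblast-like cells (log2 fold change 2.17 ± 0.26 (SE), adjusted p = 1.70e-07 by edgeR). Hist3h2a went from 22.6 CPM at P2, 46.7 and 35.9 at P12 and 25.6 at P22 to 91.6 CPM at P2, 130.1 in P12 replicate 1 and 133 at P22 (log2 fold change 1.77 ± 0.27 (SE), adjusted p = 5.29e-06 by edgeR). Neuroblast-like values of both genes lay above the TAP-like values in all 3 libraries with both groups and did not overlap with them. In neuroblast-like cells called G1 alone, Hist3h2ba was at 356 CPM at P2, 362 in P12 replicate 1 and 438 at P22 and Hist3h2a at 92.4 CPM, 152 CPM and 144 CPM. Both genes also exceeded cluster 5, where Hist3h2a was at 60.0 CPM at P2, 90.5 and 29.6 at P12 and 45.7 at P22 (Hist3h2a log2 fold change 0.85 ± 0.26 (SE), adjusted p = 0.00863 by edgeR, and Hist3h2ba log2 fold change 0.87 ± 0.25 (SE), adjusted p = 0.00624 by edgeR). The smallest called fall against cluster 5 was that of Hist1h1c (-1.64 ± 0.37), which TAP-like and neuroblast-like cells held at 91.6 CPM at P2, 112 and 114 at P12 and 72.2 at P22 and 49.4 CPM at P2, 90.0 in P12 replicate 1 and 157 at P22.

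Few members were called between resting glia and qNSC-like cells, but low counts limit what could be called. For astrocyte-like cells 13 of the tested members had at most 3 UMIs in a group over all libraries. For ependymal-like cells it was 16, and their sum at P22 had 22 cells. In astrocyte-like cells 1 of 60 members was higher and 1 lower (9.99 and 10.1% of all genes). Hist1h2bh, an H2B gene, was at 2.06 CPM at P2, 3.63 and 2.85 at P12 and 1.53 at P22 against 0.148 CPM at P2, 1.31 and 1.12 at P12 and 1.22 at P22 (log2 fold change 1.41 ± 0.48 (SE), adjusted p = 0.0379 by edgeR), and Hist2h4, an H4 gene, had a log2 fold change of -1.66 ± 0.58 (edgeR, adjusted p = 0.0422). These calls rested on few UMIs, with 6 calls without P2 and 0 without either P12 library. In ependymal-like cells edgeR called 0 members (7.70% of all genes higher, 3.06% lower), with 2 at an unadjusted p under 0.05 and 0 called by DESeq2, and 1 was called without P12 replicate 1 or without P22. Hist1h2bc was at 78.9 CPM at P2, 211 and 244 at P12 and 337 at P22 there.

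The next question was how the transcripts follow the cell cycle. Cells of the 4 dividing clusters (aNSC-like, TAP-like, cluster 5 and an oligodendroglial-like cluster) were called S, G2M or G1 from published phase genes. Cells called S held 14862 CPM at P2, 3827 and 6892 at P12 and 16047 at P22 of member transcripts and cells called G2M 18506 CPM at P2, 5491 and 8585 at P12 and 22535 at P22. Cells called G1 held 774 CPM at P2, 589.6 in P12 replicate 1 and 757 at P22, with 2 cells and no sum in P12 replicate 2. Almost all G1 cells were oligodendroglial-like (124 of 132 at P2, 33 of 33 in P12 replicate 1 and 341 of 355 at P22), so that phase and cell type cannot be told apart in comparisons with G1.

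Against G1, 55 of 60 members were higher in S (24.7% of all genes higher and 25.5% lower, median 4.46) and 55 in G2M (26.8 and 26.7%, median 5.23), with 0 members lower in either. The 5 not called were the same in both, namely Hist1h2bc, Hist2h3c1, Hist2h3c2, Hist3h2a and Hist3h2ba. Hist1h3g and Hist1h2ah, an H3 and an H2A gene, had 0 UMIs in G1 and 495 and 225 in G2M, which puts their log2 fold changes at 4.55 and 3.41 or more with a floor of 3 counts. Hist1h3b had 3 UMIs in G1 and 4696 in G2M. The smallest called rises over G1 were those of Hist1h4i (2.30 ± 0.33 in G2M), Hist4h4 (2.54 ± 0.32) and Hist1h1c (2.62 ± 0.44), and in S those of Hist2h2ab (1.56 ± 0.32), Hist1h4i (1.66 ± 0.32) and Hist1h1c (1.75 ± 0.43).

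G1 cells of the dividing clusters were also set against G1 cells of the qNSC-like clusters. Of the 60 members 4 were higher and 14 lower (24.1 and 27.4% of all genes), or 8 and 12 with total UMI counts in place of TMM. Hist3h2ba was at 161 CPM at P2, 134 in P12 replicate 1 and 126 at P22 in the former (log2 fold change 2.26 ± 0.34 (SE), adjusted p = 0.000150 by edgeR), above the qNSC-like cells of each library. The other 3 that were higher, Hist2h2ab, Hist1h2ag and Hist1h2bk, had at most 9 UMIs in the dividing G1 cells of any library. The lowest of the called members were Hist2h3c2 (-2.86 ± 0.66), Hist2h2be (-2.80 ± 0.51) and Hist2h4 (-2.62 ± 0.67), all of the Hist2 array.

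Cells called S and cells called G2M differed far less. Compared with G2M, 0 of 60 members were higher in S and 26 were lower (5.96 and 7.02% of all genes), with a median of -0.68. Lower in S were 1 of 5 H1, 9 of 15 H2A, 6 of 16 H2B, 6 of 12 H3 and 4 of 12 H4 genes. Hist2h2ab, an H2A gene, was at 5.56 CPM at P2, 2.33 and 6.20 at P12 and 3.99 at P22 in S and at 12.97 CPM at P2, 5.18 and 12.0 at P12 and 12.0 at P22 in G2M (log2 fold change -1.37 ± 0.19 (SE), adjusted p = 0.000488 by edgeR). Hist1h2bb, an H2B gene, was at 36.4 CPM at P2, 7.99 and 16.9 at P12 and 24.1 at P22 and 69.0 CPM at P2, 13.01 and 30.3 at P12 and 59.0 at P22 (log2 fold change -1.09 ± 0.16 (SE), adjusted p = 0.000664 by edgeR). Each library was lower in S, although the ranges over libraries overlapped in both genes. Hist2h2bb, another H2B gene, changed by -1.14 ± 0.35, and the smallest called falls were those of Hist1h2ap (-0.37 ± 0.11), Hist1h3i (-0.54 ± 0.13) and Hist1h1e (-0.54 ± 0.16). The count was 17 with total UMI counts and 1 without the library block, and it was 11 without P12 replicate 1, 17 without P12 replicate 2 and 13 without P22.

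The order of S and G2M was not the same in the 3 neural dividing groups, a difference that was not tested. In aNSC-like cells the members summed to 11177 CPM at P2, 3137 and 6163 at P12 and 10405 at P22 in S and to 26830.5 CPM at P2, 8385 and 13511 at P12 and 30924 at P22 in G2M, so that G2M was higher in 4 of 4 libraries. In cluster 5 S was higher in the 3 libraries with both sums, with 23894 CPM at P2, 7697 in P12 replicate 1 and 27748 at P22 in S and 20943 CPM at P2, 5674 and 10050.0 at P12 and 26984 at P22 in G2M. In TAP-like cells the P12 libraries had 5594 CPM and 10843 at P12 in S against 6540.2 CPM at P2, 2783 and 5014 at P12 and 5929 at P22 in G2M. aNSC-like cells made up most cells called S, and TAP-like cells and cluster 5 together most cells called G2M.

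A finer order came from both cycle scores, a grouping chosen after the data had been seen. Cells of aNSC-like, TAP-like and cluster 5 groups were divided into those with only the S score above 0, those with both above 0 and S or G2M the higher, and those with only the G2M score above 0. In that order the members summed to 2002 CPM at P2, 585 and 855 at P12 and 1693 at P22, then to 22575 CPM at P2, 5590.0 and 10096 at P12 and 23792 at P22, to 20084 CPM at P2, 5951 and 9017 at P12 and 23874 at P22 and to 2028 CPM at P2, 1019 and 912 at P12 and 2559 at P22. In every library both middle stages exceeded both outer stages. Median depth was 17589.5 to 26303 UMIs in the first stage, 23191.5 to 32053.5 and 24325.5 to 37518 in the middle stages and 14889.5 to 33678 in the last.

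**Figure D3:**
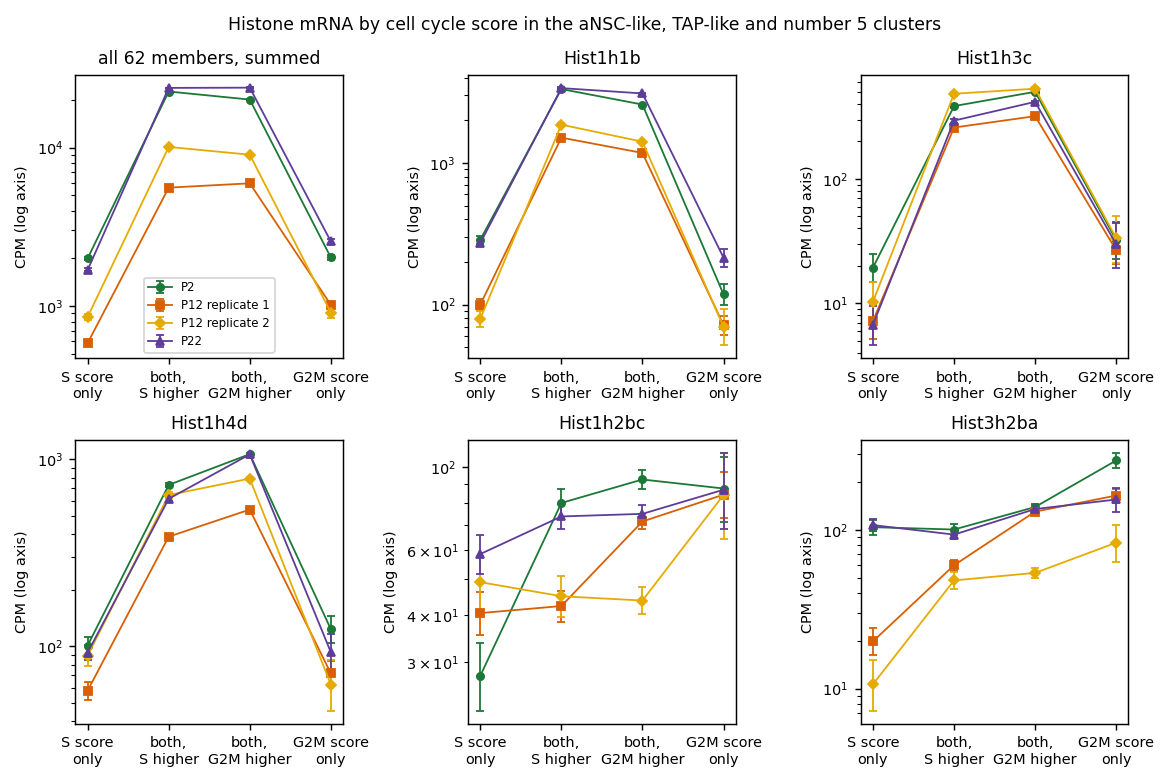
Levels in CPM by cell cycle stage in the 4 libraries, for all 62 members together and for Hist1h1b, Hist1h3c, Hist1h4d, Hist1h2bc and Hist3h2ba, with exact Poisson 95% intervals as bars. The sum and the H1, H3 and H4 genes are high in the 2 middle stages and low at both ends, whereas Hist1h2bc and Hist3h2ba do not have that shape.

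Entering the middle stages, 55 of 59 tested members rose and 0 fell (13.5 and 8.55% of all genes, median 3.54). Rising were 5 of 5 H1, 14 of 15 H2A, 14 of 16 H2B, 10 of 11 H3 and 12 of 12 H4 genes. Leaving them, 53 of 59 were higher in the later middle stage than in cells with only a G2M score and 0 were lower (15.2 and 13.1%, median 3.27). Between the middle stages the change was small, with 20 members higher in the later one and 2 lower (19.6 and 19.7%, median 0.19), or 15 and 6 with total UMI counts, and 13 in all without P22.

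Hist1h3c went through 19.4 CPM at P2, 7.23 and 10.3 at P12 and 6.74 at P22, then 385 CPM at P2, 259 and 484 at P12 and 294 at P22, then 501 CPM at P2, 319 and 531 at P12 and 416 at P22 and last 32.2 CPM at P2, 26.7 and 33.4 at P12 and 29.8 at P22. Its first step was 5.14 ± 0.15 on the log2 scale (edgeR, adjusted p = 1.14e-14). Hist1h1b went through 287 CPM at P2, 100.1 and 79.4 at P12 and 273 at P22, then 3325 CPM at P2, 1509.8 and 1864 at P12 and 3377 at P22, then 2586 CPM at P2, 1177 and 1414 at P12 and 3098 at P22 and last 118 CPM at P2, 71.7 and 69.8 at P12 and 215 at P22. Hist1h4d went through 101 CPM at P2, 58.0 and 89.4 at P12 and 92.7 at P22, then 731 CPM at P2, 386 and 645 at P12 and 616 at P22, then 1067 CPM at P2, 539 and 789.8 at P12 and 1064 at P22 and last 124 CPM at P2, 71.7 and 62.5 at P12 and 93.1 at P22. In all 3 genes no outer value of a library reached a middle value of that library. Hist1h2ab, an H2A gene, also rose steeply (5.23 ± 0.20), and Hist1h1a, an H1 gene, was 5.06 ± 0.20 higher in the later middle stage than in the last one. Hist1h4f and Hist1h4b, 2 H4 genes, had at most 3 UMIs per library in the first stage and at most 1 in the last.

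Some members moved little. The smallest called rises on entry were those of Hist2h2be (0.91 ± 0.24), Hist2h4 (1.34 ± 0.29) and Hist2h2ab (1.42 ± 0.24), all of the Hist2 array. On leaving, Hist1h2ag (0.89 ± 0.25), Hist1h3g (1.24 ± 0.34) and Hist1h2bk (1.33 ± 0.38) had the smallest called differences. Not called on entry were Hist1h2bc, Hist2h3c1, Hist3h2a and Hist3h2ba, and on leaving these and Hist1h4i and Hist2h2be. Hist1h2bc went through 27.5 CPM at P2, 40.6 and 49.2 at P12 and 58.5 at P22, then 80.3 CPM at P2, 42.4 and 45.1 at P12 and 73.8 at P22, then 92.8 CPM at P2, 71.6 and 43.9 at P12 and 75.0 at P22 and last 87.8 CPM at P2, 84.5 and 84.3 at P12 and 87.1 at P22. Its libraries crossed from stage to stage, and P22 had the highest level of the first stage and P12 replicate 2 the lowest of the third.

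Hist3h2ba instead had its highest value in the last stage in all 4 libraries, with 139 CPM at P2, 130.1 and 53.5 at P12 and 135 at P22 in the later middle stage and 273 CPM at P2, 164 and 82.9 at P12 and 155 at P22 in the last. From the earlier to the later middle stage it rose (log2 fold change 0.71 ± 0.26 (SE), adjusted p = 0.0358 by edgeR), as did Hist3h2a (log2 fold change 0.91 ± 0.17 (SE), adjusted p = 0.000374 by edgeR) and Hist2h2ab (log2 fold change 1.10 ± 0.15 (SE), adjusted p = 1.27e-05 by edgeR). Hist1h2an and Hist1h3a were the 2 that fell there. Hist1h2an, an H2A gene, went from 234 CPM at P2, 66.4 and 47.4 at P12 and 135 at P22 to 156 CPM at P2, 53.1 and 24.8 at P12 and 111 at P22 (log2 fold change -0.41 ± 0.10 (SE), adjusted p = 0.00343 by edgeR), lower in 4 of 4 libraries, and Hist1h3a changed by -0.30 ± 0.11. Hist1h2bh had the smallest called rise (0.34 ± 0.10). Annotated length went with these steps as it did with state, since the median entry step was 2.64 for the long members and 4.02 for the others.

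Libraries of P2 and P22 held more histone transcripts than those of P12 among dividing cells. Of 61 members with at least 40 UMIs in dividing cells called G2M, 47 (77.0%) were higher at both P2 and P22 than in both P12 libraries, against 18.6% of all genes. None was lower at both, where 50.1% of all genes were. In dividing cells called S it was 38 of 59 (64.4%) above, against 21.8% of all genes above and 52.0% below. Within aNSC-like cells it was 20 of 60 (33.3%), against 20.9% above and 51.9% below, and within cluster 5 it was 37 of 60 (61.7%), against 20.3% above and 42.9% below. In qNSC-like cells 17 of 46 (37.0%) were above and 10 (21.7%) below, against 20.9% and 42.4% of all genes. Dividing cells called G2M were a different mix of clusters in each library. TAP-like cells made up 100 of 512 at P2, 264 of 1130 and 207 of 396 at P12 and 122 of 676 at P22. Cluster 5 cells, with higher member sums, numbered 325 at P2, 563 and 72 at P12 and 470 at P22. The part of this mix was not tested. The counts above have 1 library at each of 2 ages and were not tested, and they go with the Cell Ranger version.

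The H2A genes differed most between libraries. Dividing cells called G2M held 9576 CPM at P2, 1466 and 2809 at P12 and 13579.7 at P22 of H2A transcripts, 4362 CPM at P2, 1971 and 2856 at P12 and 4953 at P22 of H1, 1312 CPM at P2, 655 and 681 at P12 and 1079.9 at P22 of H2B, 1476 CPM at P2, 625 and 932 at P12 and 1266 at P22 of H3 and 1779 CPM at P2, 774 and 1308 at P12 and 1656 at P22 of H4. Over the mean of both P12 libraries, the H2A sum was 4.48 times as high at P2 and 6.35 times at P22. For the other types the ratio was 1.71 to 1.96 at P2 and 1.59 to 2.05 at P22. Counted as UMIs per cell, the H2A ratios were 3.67 and 4.84 and the ratios of the other types 1.41 to 1.69 and 1.22 to 1.60. All these ratios are over cells whose mix of clusters differed between libraries.

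The largest gaps were in genes with near-identical copies. Hist1h2ad was at 621 CPM at P2, 5.95 and 28.1 at P12 and 912 at P22 in G2M, Hist1h2ap at 5562 CPM at P2, 295 and 936 at P12 and 8319 at P22, and Hist1h3b at 123 CPM at P2, 9.64 and 22.5 at P12 and 148 at P22. In each of them the lower of P2 and P22 was at least 5 times the higher P12 value, which held for 3 of 61 members and for 13 of 13436 genes (0.0968%). Hist1h2ad was seen in 82.4% at P2, 13.4 and 47.5 at P12 and 85.4 at P22 of these cells, and in 70.1% at P2, 3.37 and 12.6 at P12 and 72.7 at P22 when thinned to 5000 UMIs. Of their windows, 72.3% (Hist1h2ad), all (Hist1h2ap) and 62.9% (Hist1h3b) were shared with other genes. Over members with at least 50% shared windows the median ratio of the lower of P2 and P22 to the higher P12 value was 1.71, and over the others 1.29. The part of read assignment in this was not tested. Hist1h3c, by contrast, was at 457 CPM at P2, 291 and 505 at P12 and 392 at P22, with P12 replicate 2 the highest, and Hist1h4b at 6.30 CPM at P2, 2.92 and 14.6 at P12 and 4.22 at P22, also highest in P12 replicate 2.

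**Figure D4:**
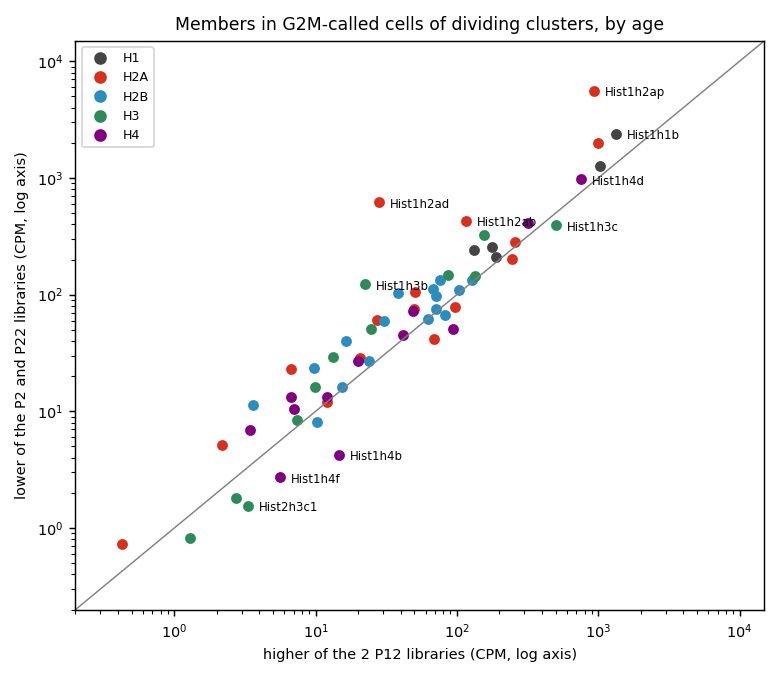
For each member in dividing cells called G2M, the lower of the P2 and P22 levels against the higher of the 2 P12 levels, in CPM on log axes, with a diagonal of equality. Of 61 members, 47 lie above the diagonal, and Hist1h2ad, Hist1h2ap and Hist1h3b lie farthest above it.

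Whether the difference between S and G2M changed with age was tested as a slope over the 3 ages. edgeR called 0 of 60 members and 0.00% of all genes, 0 members had an unadjusted p under 0.05, and DESeq2 called 0 members.

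Replacement histone variants, made also outside S phase, mostly from tailed mRNAs, were listed beside the members (11 genes). Between qNSC-like and aNSC-like cells 10 of 11 rose and 0 fell, with a median of 1.18 against 4.46 over the members and 0.02 over all genes. Largest were Cenpa, the centromeric H3 (3.50 ± 0.37), H2afz, which encodes H2A.Z (3.47 ± 0.19), and H2afx, whose product marks DNA breaks when phosphorylated (3.36 ± 0.24). In S compared with G2M 7 fell and 0 rose, with Cenpa at 67.4 CPM at P2, 42.0 and 20.9 at P12 and 41.2 at P22 in S and 955 CPM at P2, 766 and 529.8 at P12 and 861 at P22 in G2M on the TMM scale (log2 fold change -4.26 ± 0.14 (SE), adjusted p = 8.82e-09 by edgeR), followed by H2afx (-1.74 ± 0.12) and the linker variant H1fx (-1.33 ± 0.22). Cenpa was lower in S in 4 of 4 libraries without overlap. From TAP-like to neuroblast-like cells 7 fell and 2 rose. For this list and the next 2, the shares over all genes were 36.1% higher and 33.7% lower in aNSC-like against qNSC-like cells. They were 5.96% higher and 7.02% lower in S against G2M, and 25.3% higher and 29.2% lower in neuroblast-like against TAP-like cells.

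Of 15 listed factors that make, process or degrade histone mRNA, 13 were tested between states. In aNSC-like cells 10 were higher than in qNSC-like cells and 0 lower. Slbp was at 50.9 CPM at P2, 57.6 and 47.6 at P12 and 55.1 at P22 in qNSC-like cells and 429 CPM at P2, 459 and 399.9 at P12 and 398 at P22 in aNSC-like cells on the TMM scale (log2 fold change 3.00 ± 0.14 (SE), adjusted p = 6.62e-16 by edgeR), with no overlap between the groups. Eri1, an exonuclease that trims the stem-loop (2.57 ± 0.11), Ncbp1, a subunit of the cap binding complex (1.86 ± 0.11), and Npat, the transcription factor of the histone locus body (1.10 ± 0.11), rose too. In S compared with G2M 4 of 14 were higher, among them Slbp (log2 fold change 0.97 ± 0.08 (SE), adjusted p = 7.89e-06 by edgeR) and Casp8ap2 (0.61 ± 0.14), a further protein of the histone locus body, and 2 were lower (5 and 0 with total UMI counts), among the latter Zfp473 (-1.04 ± 0.31), which takes part in histone mRNA processing. Slbp thus went opposite to the members in that comparison. Along the stages it was 1.07 ± 0.06 higher on entry, fell between the middle stages (-1.21 ± 0.06) and was 3.08 ± 0.10 higher in the later middle stage than in the last one. From TAP-like to neuroblast-like cells 9 fell and 1 rose, Slbp by -1.74 ± 0.15 and Npat by -1.08 ± 0.13.

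Of 15 listed chaperones and carriers of histone proteins, 13 rose between qNSC-like and aNSC-like cells and 0 fell. Largest were Chaf1b (6.30 ± 0.28) and Chaf1a (5.10 ± 0.26), subunits of the CAF-1 complex that places H3 and H4 on new DNA, and Asf1b, which hands it H3 and H4 (5.51 ± 0.27). In S compared with G2M 3 were higher, Chaf1b (log2 fold change 1.93 ± 0.21 (SE), adjusted p = 5.65e-05 by edgeR), Chaf1a and the histone acetyltransferase Hat1, and 1 was lower. From TAP-like to neuroblast-like cells 10 fell and 1 rose, with Asf1b at -4.95 ± 0.32.

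In the other comparisons the 3 lists did not always go the same way. From aNSC-like to TAP-like cells 5 variants rose and 0 fell, where 4.79% of all genes rose and 5.73% fell. In the same step 6 mRNA factors fell and 0 rose, led by Slbp (-1.23 ± 0.13). The chaperones had 3 that fell and 0 that rose, led by Chaf1b (-2.01 ± 0.22). From aNSC-like cells to cluster 5 9 variants rose and 0 fell, and 1 mRNA factor rose and 4 fell. Of 15 chaperones 2 rose and 3 fell, near the shares over all genes (14.6 and 20.4%). Against qNSC-like cells astrocyte-like cells had 2 variants, 0 mRNA factors and 3 chaperones lower and 0 of any list higher. The shares over all genes were 10.1% lower and 9.99% higher. Ependymal-like cells had 1 variant and 1 chaperone higher and 0 lower, where 7.70% of all genes were higher and 3.06% lower. On entering the middle stages 9 variants, 8 mRNA factors and 11 chaperones rose and 0 fell (13.5 and 8.55% of all genes). The rises were 3 and 8 for the mRNA factors and chaperones with total UMI counts.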

How the data were processed

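The authors dissociated the microdissected tissue with papain, sorted viable nucleated cells, made 10x Genomics 3′ libraries (version 3 chemistry) and aligned reads to GRCm38 (mm10) with Cell Ranger. As deposited, the files hold whole-number UMI counts per gene and cell barcode, without normalization, for 4608 (P2), 8617 and 6400 (P12) and 4880.0 (P22) barcodes. The matrix headers name Cell Ranger 5.0.1 for P2 and P22 and 3.1.0 for P12, and the submitters' processing notes name 3.1.0 and Seurat 3. Reads are assigned to 1 gene by that software, so that reads shared by copies of a histone gene can be lost or moved.

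The filter on cells asked for 2000 to 8000 genes per barcode, with no more than 10% of UMIs from mitochondrial transcripts. P12 cells were clustered with Seurat 5.3.0 (R 4.3.3, 2000 variable genes, 20 components, resolution 0.5, anchor integration), without the histone genes and the listed genes, and classes were carried over to P2 and P22 by Seurat's label transfer. Doublet calls by Scrublet were 39, 112, 4 and 45. With only 0.0870% of cells called in P12 replicate 2 the calls were not relied on, and called cells were kept. Phases came from 39 S and 53 G2M genes, after leaving out 4 and 1 that are on the lists. A cluster counted as dividing where at least 50% of its cells were called S or G2M in each P12 library.

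UMI sums of at least 20 cells were tested with edgeR 4.0.16 (glmQLFit and glmQLFTest, TMM, filterByExpr, library as block) and adjusted after Benjamini-Hochberg over all genes, at 0.05. The library is a block because its cell groups share their animals. The p-values thus measure how differences between cell groups vary over these 4 libraries, and not the spread of levels between libraries. DESeq2 1.42.0 was an alternative, beside other scalings, filters, cell sets and left-out libraries. Levels have exact Poisson 95% intervals. The transcript ends were taken from the GENCODE annotation of GRCm38, in which all 62 members were found. Steps across many genes were tested on simulated data.

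Genes were named by rule, namely the 3 members of each histone type with most UMIs, the 3 highest and 3 lowest called members of a comparison, called members against the majority, Slbp and Npat, and up to 3 called genes of each list. The members and lists were chosen with earlier results of these data known. The comparisons of cluster 5, the cycle stages, the classes by annotated length and shared windows, the levels of neuroblast-like, endothelial-like and microglia-like cells called G1 alone, and the alternatives with P2 and P22 only or without the oligodendroglial-like cluster were added after the data had been seen.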

Additional observations from a re-analysis of the deposited data

Results flagged for a closer look

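Endothelial-like and microglia-like cells entered none of the tests, and their histone levels were above those of the qNSC-like cells of the same library in 2 cases. In P12 replicate 2 the 29 endothelial-like cells held 2083 CPM of member transcripts, against 909 CPM in qNSC-like cells. At P22 the 75 microglia-like cells held 980 CPM, against 957 CPM. Of the endothelial-like cells 4 (13.8%) were called S or G2M, and the other 25 held 249 CPM. Of the microglia-like cells 1 was called S or G2M, and the other 74 held 949.9 CPM. No test was made.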

How the results depend on the processing

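Leaving out single libraries moved the counts of called members little for aNSC-like against qNSC-like cells (54 higher and 4 lower, 58 calls), neuroblast-like against TAP-like cells (54 calls), neuroblast-like cells against cluster 5 (57 calls) and the steps into and out of the middle cycle stages (55 and 53 calls). With each library left out in turn these counts ranged over 57 to 58, 50 to 53, 55 to 57, 54 to 56 and 50 to 52. The comparisons with G1 ranged over 53 to 57 (S) and 55 to 56 (G2M), both 55 as reported, and gave 31 and 35 with the P12 libraries alone.

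Other counts moved by more than 1.5 times. For S against G2M (26) the count was 17 with total UMI counts and 1 with the P2 and P22 libraries only, and 11 to 29 with a library left out. For TAP-like against aNSC-like cells (19) it was 8 with DESeq2, 5 with P2 and P22 only, 5 with cells thinned to 5000 UMIs and 4 to 16 with a library left out. For G1 cells of dividing against qNSC-like clusters (18) it was 6 with the P12 libraries only and 14 to 20 with a library left out. There the log2 fold changes of Hist1h2ag (-1.86) and Hist1h2bk (-3.63) turned negative with P12 only, and that of Hist2h2ab (-0.62) with thinned cells. For astrocyte-like against qNSC-like cells (2) it was 9 with P12 only, 0 with P2 and P22 only, 0 without the 5% of cells with the highest doublet scores and 0 to 6 with a library left out, and for ependymal-like cells (0) it was 0 to 1. For cluster 5 against aNSC-like cells (41) it was 25 with P2 and P22 only and 28 (without P12 replicate 1) to 44 with a library left out. Between the middle stages (22) it was 14 with DESeq2, 11 with P12 only and 13 to 24 with a library left out. The H2B ratio to the P12 mean was 1.69 at P2 and 1.29 at P22 as UMIs per cell. The causes of these shifts were not tested.

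Without the library as replicate block the counts were 1 for S against G2M, 51 and 55 for S and G2M against G1, 6 for G1 cells, 56 for aNSC-like against qNSC-like cells, 0 for TAP-like against aNSC-like cells, 42 for neuroblast-like against TAP-like cells, 0 for astrocyte-like and 0 for ependymal-like cells, 4 for cluster 5, 52 for neuroblast-like cells against it, 42 and 36 for the steps into and out of the middle stages, 0 between them and 0 for the slope with age.

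Total UMI counts in place of TMM moved the median log2 fold change of all genes from 0.00 to 0.14 (S against G2M), 0.04 to -0.19 (G2M against G1), -0.05 to 0.14 (G1 cells), -0.06 to -0.18 (cluster 5 against aNSC-like cells) and 0.02 to 0.25 (neuroblast-like cells against cluster 5). Of 60 members 58 still had an estimate below 0 for S against G2M. The slope with age could not be fitted with P12 alone (1 age) or with P2 and P22 alone (no residual degrees of freedom), and without the oligodendroglial-like cluster no comparison with G1 cells of dividing clusters could be made. Counting each alternative of each named gene as 1 value, 2263 values kept the direction and side of the threshold, 337 were no longer past it and 3 changed sign.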
